A study of Homo sapiens with 12 samples.

Results

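DU145 is a human prostate cancer cell line that lacks the androgen receptor and grows in an androgen-independent way. The libraries described here came from DU145 cells that carried a stably transduced lentiviral knockdown hairpin RNA, labelled shSigma. They were taken from 2 cultures, adherent cells and tumor spheres, and were chosen by their labels alone. They made up 6 of the 12 libraries of the series, 3 per culture. The other 6 libraries came from cells with a control hairpin (shCtrl) in the same cultures, 3 of each, and are used below to set the shSigma difference beside that of control cells. No cell in the series lacked a hairpin, so all groups shared the steps of transduction, with puromycin selection described for the knockdown. The study's methods name 1 hairpin clone for the stable knockdown, other parts of the study show more than that, and the labels say only shSigma, so the values may rest on a single hairpin. Adherent cells grew on plastic in RPMI with fetal bovine serum. Tumor spheres were seeded at low density on dishes coated to prevent attachment, in serum-free DMEM-F12 with B-27 supplement, insulin, FGF2 and EGF. The 2 cultures therefore differed in attachment, serum, growth factors and density at once. The labels give no preparation batch. If the cultures were prepared apart, then preparation cannot be told apart from culture in any value below, and neither can the medium.

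Growth as spheres removes attachment to a substrate, and cancer cells that survive and divide under these conditions are often studied as a population enriched for stem or progenitor properties. Attached cells read their substrate through integrins, focal adhesions and the actin cytoskeleton, which feed the YAP/TEAD and SRF/MRTF transcription factors. Cells with little oxygen stabilise HIF transcription factors, which raise glycolytic enzymes and a set of other targets.

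The hypoxia and glycolysis genes were among the groups most often lower in spheres of shSigma cells, and FOS, FOSB and EGR1 were among the genes most strongly higher. The promoter windows of LDHA and BNIP3 are shown for the lower groups and that of EGR1 for the higher genes. Each window runs from 250 bases before to 50 bases after the annotated start in RefSeq (build GRCh38.p14), 5′ to 3′ on the strand of the gene. In LDHA and BNIP3, capitals mark ACGTG on either strand, the core of the hypoxia response element, which also lies within the E-box CACGTG. In EGR1, capitals mark the CArG box, the element read by serum response factor.

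LDHA (chr11:18394313-18394612, plus strand): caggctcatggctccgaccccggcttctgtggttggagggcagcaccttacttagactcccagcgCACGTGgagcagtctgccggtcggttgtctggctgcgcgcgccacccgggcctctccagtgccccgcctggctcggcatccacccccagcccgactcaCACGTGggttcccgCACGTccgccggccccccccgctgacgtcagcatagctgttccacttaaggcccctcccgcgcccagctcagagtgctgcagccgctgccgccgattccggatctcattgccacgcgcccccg
BNIP3 (chr10:131981874-131982173, minus strand): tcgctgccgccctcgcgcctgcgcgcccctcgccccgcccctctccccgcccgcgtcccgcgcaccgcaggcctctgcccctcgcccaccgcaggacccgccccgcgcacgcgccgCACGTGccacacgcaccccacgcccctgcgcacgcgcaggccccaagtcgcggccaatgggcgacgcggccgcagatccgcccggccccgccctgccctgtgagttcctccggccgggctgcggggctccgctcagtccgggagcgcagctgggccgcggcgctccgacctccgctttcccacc
EGR1 (chr5:138465229-138465528, plus strand): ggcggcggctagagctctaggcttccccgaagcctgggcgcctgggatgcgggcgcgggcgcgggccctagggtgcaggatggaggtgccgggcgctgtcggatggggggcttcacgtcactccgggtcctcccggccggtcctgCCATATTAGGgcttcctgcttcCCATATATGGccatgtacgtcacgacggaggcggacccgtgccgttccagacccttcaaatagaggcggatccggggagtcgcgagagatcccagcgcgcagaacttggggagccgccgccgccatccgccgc

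ACGTG stood on either strand in 26.1% of the windows of the 10742 genes tested that had one. Of the glycolysis genes with a window, 9 of 20 held it, and of the other hypoxia targets 10 of 18. The RefSeq window of PDK1, another lower hypoxia target, held none. The CArG box stood in 1.03% of all windows and in 1 of 26 windows of the growth factor and ERK feedback list, that of EGR1. A match describes these letters in this window and is not evidence of binding.

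Levels are given below as CPM, the counts scaled to a common library size (TMM, all 12 libraries), and differences as log2 fold changes of spheres over adherent cells with standard errors (SE). Tests are by edgeR (quasi-likelihood), and adjusted p-values are after Benjamini and Hochberg, across every gene tested. Gene positions are those of GENCODE release 44 on GRCh38.

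The shSigma libraries held 18626387 to 22006759 counts, and the spread between libraries of a culture (biological coefficient of variation) was 10.7%. No replicates were alike within sampling noise. The first principal component, with 81.7% of the variance, separated the cultures. Adherent replicate 3 stood apart from the other adherent libraries. In the tenth of genes with the highest transcript GC content, its median deviation from the gene mean was -0.76 on the log2(CPM + 0.5) scale, against -0.14 and -0.0036 in adherent replicates 1 and 2 and 0.20 to 0.44 in spheres. Epithelial markers fixed for the line (KRT8, KRT18, KRT19, EPCAM, CDH1 and CLDN4) summed to 1164 to 1483 CPM in adherent cells and 984 to 1063 CPM in spheres. Of 8 markers of the prostate luminal lineage and its androgen receptor, 1 reached 1 CPM, and their sum was 18.8 to 22.9 CPM in adherent cells and 11 to 12.9 CPM in spheres. Neuroendocrine markers summed to 119.7 to 123 CPM and 65.8 to 69.2 CPM, and fibroblast markers to 3.57 to 5.85 CPM and 10.3 to 14.8 CPM. Of the 6 neuroendocrine markers, 3 had at most 3 counts in any of these libraries. SYP and NCAM1 had means of 1.16 and 2.95 CPM in adherent cells and 2.98 and 0.80 CPM in spheres. The neuroendocrine sum therefore came almost wholly from a single other marker. Markers of leukocytes summed to at most 2.1 CPM, and those of endothelium to at most 1.62 CPM. Of 51 ribosomal protein genes, 4 were under 1 CPM in every library. Such genes are used by every cell, so a level near 0 in these counts does not show that a gene is silent. In bulk RNA, a change in the share of cells that express a gene and a change in the RNA per cell cannot be told apart.

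Of 13622 genes tested, 785 (5.76%) were higher and 485 (3.56%) lower in spheres than in adherent shSigma cells, at an adjusted p under 0.05 and an absolute log2 fold change over 1. These genes are termed called below. Genes called higher made up 61.8% of the calls. Once transcript GC content and length were fitted as an offset, 534 genes were called higher and 541 lower, a share of 49.7%. Without adherent replicate 3, 666 were called higher and 536 lower. The offset kept 487 of the genes called higher and 423 of those called lower. Without a threshold on the fold change, 2986 genes (21.9%) were higher and 3428 (25.2%) lower at an adjusted p under 0.05, 47.1% in all. The sphere and adherent libraries did not overlap in 60.8% of all genes tested (28.3% higher, 32.5% lower in spheres), so that separation alone is common here. Of the 1270 genes called, 1267 were separated in this way. Where a called gene is said below to be separated, this describes its values and is no added support. These shares are the background against which the counts within gene lists are read. The gene lists below count members at that adjusted p, and no list was tested as a set.

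Glycolysis, the breakdown of glucose to pyruvate, was lower in shSigma spheres almost throughout. Of 21 genes of glucose uptake and glycolysis, 17 fell and the other 4 did not pass the test, with a median log2 fold change of -0.67 against 0.0025 over all genes tested. LDHA, which makes lactate from pyruvate, stood at 936, 892 and 1083 CPM in adherent cells and at 466, 463 and 458 CPM in spheres. Every sphere library lay below every adherent one, and the log2 fold change was -1.05 (SE 0.062, adjusted p = 1.4e-05). HK2, which phosphorylates glucose on entry, fell by 1.08 on the log2 scale. PFKFB4, which sets the level of an activator of phosphofructokinase, fell by 1.15. The glucose transporter SLC2A3 fell by 1.70, from a level of at most 2.19 CPM. Some other enzymes had smaller log2 fold changes. GAPDH went from 4069, 4102 and 3987 CPM to 2322, 2206 and 2257 CPM (-0.82). With the GC offset it had -1.06, past the threshold on the fold change. ENO1 and PGK1 had log2 fold changes of -0.76 and -0.77, or -0.81 and -0.66 with the offset. PKM, the last enzyme of the pathway, did not pass the test (-0.098, adjusted p = 0.13).

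Hypoxia targets outside glycolysis followed the same direction, with 16 of 23 lower and 2 higher (median -0.53). NDRG1, a stress-induced gene that responds strongly to low oxygen, was at 325, 326 and 342 CPM in adherent cells and 37.9, 42.4 and 36.8 CPM in spheres. The libraries of the cultures did not come near each other, and the fold change was -3.06 (SE 0.067, adjusted p = 3.2e-07). PDK1, which restrains entry of pyruvate into mitochondria, fell from 66.6, 67.7 and 81.1 CPM to 24.2, 23.8 and 21.8 CPM. BNIP3, a mitophagy receptor, fell from 276, 265 and 301 CPM to 139, 133 and 131 CPM. VEGFA, the angiogenic growth factor, and P4HA1, a collagen prolyl hydroxylase, had smaller log2 fold changes of -0.41 and -0.81. STC1, a secreted glycoprotein outside the list, fell by 2.59, and PPP1R3C, which targets a phosphatase to glycogen, fell by 2.41. The 2 members that rose were ANGPTL4, an inhibitor of lipoprotein lipase, at 1.19, 1.18 and 1.21 CPM in adherent cells and 8.01, 6.51 and 6.73 CPM in spheres, and ADM, which encodes a vasodilator peptide (1.81). The log2 fold change of ANGPTL4 was 2.59, or 1.95 with the GC offset. That of LDHA was -0.99 with the offset, just under the threshold on the fold change.

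In control cells the medians lay nearer 0, with a value of -0.15 for the glycolysis list and 0.12 for the hypoxia list. The difference between hairpins was tested directly as the interaction of hairpin and culture in 1 fit of all 12 libraries. By that test, 10 of 21 glycolysis genes and 15 of 23 hypoxia targets had a lower sphere-to-adherent difference in shSigma than in shCtrl cells. Over all genes tested for it, 15.6% did, and 28.4% passed in either direction. NDRG1 rose in control cells, from 47.1, 47 and 51.7 CPM to 81.2, 80.2 and 143 CPM, which gave an interaction of -4.15 (SE 0.28, adjusted p = 3e-06). In adherent culture each shSigma library lay above each control library, so that the hairpins already differed there, and the lowest NDRG1 level of all 4 groups was that of shSigma spheres.

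Genes of attachment and of the stretched cytoskeleton were mostly lower in spheres. Among YAP/TEAD and SRF/MRTF targets, 16 of 29 fell and 4 rose (median -0.42). ANKRD1, a direct YAP target, was at 308, 321 and 387 CPM in adherent cells and 77.8, 85.6 and 76.4 CPM in spheres. AXL, a receptor tyrosine kinase, went from 1204, 1246 and 1204 CPM to 356, 357 and 351 CPM. Both were several times lower in every sphere library. TPM1, an actin-binding tropomyosin, fell by 1.77 on the log2 scale, and NT5E, the ectoenzyme CD73, by 1.33. ACTA2, smooth muscle actin, fell by 1.40 from at most 2.07 CPM. CCN1 and CCN2, the matricellular targets most often used to read YAP, moved apart. CCN1 fell by 0.59 (adjusted p = 8.7e-05), while CCN2 rose by 0.48 (adjusted p = 0.007). In control cells both fell, by 3.15 and 2.36, and the interactions were 2.53 and 2.82.

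Of 25 integrin and focal adhesion genes, 12 were lower and 3 higher. CAV1, the coat protein of caveolae, stood at 263, 259 and 287 CPM in adherent cells and 56.7, 59.4 and 60.6 CPM in spheres. ITGB3, the beta subunit of a vitronectin receptor, stood at 13.5, 13.9 and 15.2 CPM and 2.97, 3.71 and 2.59 CPM. The libraries of the cultures did not overlap for either gene. ITGB3 shares part of its exons with an overlapping gene, among which reads may be divided. ITGB8, a partner of alpha V that activates latent TGF-beta, and BCAR1, an adapter of focal adhesions, went the other way at low levels, with log2 fold changes of 1.15 and 1.02. The call of ITGB8 was lost when any of 4 libraries was left out, and BCAR1 had 0.46 with the GC offset, which ended its call.

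Matrix genes moved in both directions, 8 up and 9 down of 25. The lysyl oxidases, which crosslink collagen and elastin, were among the steepest falls of the data. LOX is counted in the hypoxia list and not among these 25. It was at 58, 62.1 and 68.3 CPM in adherent cells and 3.88, 3.92 and 4.45 CPM in spheres (-3.92, SE 0.091, adjusted p = 3.8e-07). LOXL2 stood at 418, 446 and 322 CPM and 74, 74.7 and 68.2 CPM. COL13A1, a transmembrane collagen of adhesion sites, fell by 3.79. TGFBI, a matrix protein bound by integrins, fell by 1.51, and NID1, a linker of basement membranes, by 1.23. Against these, LAMA3, a laminin chain of epithelial basement membrane, rose from 219, 216 and 229.7 CPM to 723, 729.5 and 777 CPM. FN1, fibronectin, rose from 63.6, 64.1 and 69 CPM to 169, 178 and 193 CPM, and COL1A1 by 1.43. The urokinase pair fell. PLAU, the urokinase gene, went from 699, 716 and 792 CPM to 232, 232 and 229 CPM, and PLAUR, its receptor, fell by 1.30. The collagenase MMP1 fell by 3.12 from a level of at most 8 CPM. Of 12 proteases and inhibitors tested, 4 fell and 1 rose, and these 3 were called.

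BMP signalling is read through the ID genes, which encode inhibitors of basic helix-loop-helix factors and are direct SMAD targets. ID2 was at 34.6, 34.1 and 32.8 CPM in adherent cells and 2.47, 2.07 and 3.02 CPM in spheres (-3.72, SE 0.13, adjusted p = 1.4e-06). ID1 was at 111, 111 and 64.6 CPM and 9.88, 8.63 and 8.1 CPM, and its lowest adherent library was replicate 3, the library that is low in GC-rich genes. SMAD6, an inhibitor that BMP signalling itself induces, fell by 1.55, and SMAD9, a BMP effector, by 1.74. Ligands of the family rose from low levels: TGFB3 went from 1.76, 2.25 and 2.31 CPM to 8.01, 7.47 and 7.2 CPM, BMP4 rose by 1.55, and GDF15, a distant member induced by stress, by 3.31 (2.63 with the GC offset) from at most 0.205 CPM. The latent TGF-beta binding proteins LTBP1 and LTBP3 rose by 1.16 and 1.23. The value of LTBP3 dropped to 0.18 (adjusted p = 0.33) with the GC offset. Across the list, 9 members were higher and 7 lower of 26. ID1 and ID2 fell in control cells as well, by 3.10 and 4.63.

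FOS, EGR1, JUN and FOSB, transcription factor genes that are transcribed within minutes of growth factor or stress signals, were higher in spheres. FOS stood at 8, 6.81 and 5.88 CPM in adherent cells and 99.1, 128 and 102 CPM in spheres (4.01, SE 0.17, adjusted p = 1.1e-05). EGR1 stood at 16.2, 14.3 and 10.6 CPM and 135, 171 and 149.5 CPM, and JUN at 27, 27.4 and 24.3 CPM and 104, 95.8 and 76.5 CPM. In all 3 genes each sphere library was above each adherent one. FOSB rose by 4.21 and RRAD, a small GTPase, by 4.21 (3.41 with the GC offset). Neither is in the growth factor and ERK feedback list. MYC rose from 48.7, 56.4 and 49.9 CPM to 117, 115 and 114 CPM. The wider growth factor and ERK feedback list was divided, with 14 of 35 higher and 13 lower. IRS1, an adapter of the insulin receptor, and LIF, a cytokine, rose by 1.50 and 1.19. IRS2, the other adapter, and TGFA, a ligand of the EGF receptor, fell by 1.30 and 1.73. EGFR itself went from 469.9, 459.6 and 497 CPM to 276, 293 and 309 CPM, and IGFBP3, which binds insulin-like growth factors, fell by 1.16. FOS, EGR1 and JUN also rose in control spheres, by 3.08, 3.50 and 1.79, and their interactions did not pass the test (adjusted p = 0.094, 0.96 and 0.95). Time and handling between culture and lysis are not given in the sources used here, and their part in these genes was not tested.

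Cytokines, chemokines and other NF-kappaB targets were higher in spheres, 15 of 24 against 4 lower (median 0.77). C3, the central complement component, was at 4.71, 4.15 and 4.44 CPM in adherent cells and 42.8, 43.8 and 53.4 CPM in spheres (3.42, SE 0.12, adjusted p = 1.3e-06). The neutrophil chemokine CXCL8 was at 25.5, 28.3 and 30.6 CPM and 94.7, 89.9 and 99.8 CPM. The related CXCL2 was at 11.9, 13 and 12.9 CPM and 53.3, 62.5 and 53.9 CPM, and CXCL1 rose by 2.97. Each of these genes was separated between cultures. LCN2, a siderophore-binding protein, rose by 2.76, IL6 by 1.96 and S100A9, a calcium-binding alarmin, by 2.52, the last from at most 0.286 CPM. ICAM1, an adhesion receptor for leukocytes, rose from 182, 187 and 174 CPM to 397, 414 and 416 CPM, and NFKBIA, the inhibitor that NF-kappaB induces, from 127, 125 and 127 CPM to 240.0, 235 and 224 CPM. IL11, of the IL-6 family, went against the list and fell by 1.61. In control cells the list was lower more often than higher (11 against 8 of 24). Over all genes of control cells, 26.3% were lower and 27.4% higher (53.7% in all). The interaction was positive for 15 of 24 members and negative for 3, where 12.7% of all genes had a positive one.

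Genes of mitosis were lower, 31 of 38 with 7 that did not pass the test, but the falls stayed under the threshold on the fold change (median -0.41). ANLN, a scaffold of the cytokinetic ring, went from 235, 232 and 280.1 CPM to 145, 134 and 145 CPM. TOP2A, the topoisomerase of dividing cells, went from 651, 659.8 and 767 CPM to 428, 423 and 456 CPM, and MKI67, the Ki-67 proliferation antigen, from 324, 338 and 399 CPM to 222, 241 and 269 CPM. CDC25C, the phosphatase that triggers entry into mitosis, and BUB1, a spindle checkpoint kinase, fell by 0.89 and 0.78. Each of the 5 was lower in all sphere libraries. S phase genes did not move as a group, with 7 of 36 higher, 5 lower and a median of -0.039. In control cells the falls were larger, with medians of -1.09 for mitosis and -0.50 for S phase. The interaction was positive for 33 of 38 mitosis genes and 24 of 37 S phase genes. In adherent culture the mitosis genes summed to 8861, 8496 and 8239 CPM in control and 4311, 4344 and 4945 CPM in shSigma libraries. In spheres they summed to 3998, 4038.5 and 3499 CPM in control and 3298, 3265 and 3503 CPM in shSigma libraries. The hairpins thus already differed in adherent culture, and the S phase sum was also higher in each adherent control library. The CDK inhibitor CDKN1A fell by 0.82 in shSigma spheres, and 6 of 20 CDK inhibitors and p53 targets rose while 6 fell. BBC3, a p53-induced cell death gene, rose by 1.18, but with the GC offset its value was -0.11 (adjusted p = 0.65).

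Replication-dependent histone genes rose in 11 of 12 tested members (median 1.04). H4C8 was at 16.6, 14.9 and 18.4 CPM in adherent cells and 43.3, 42.1 and 45.4 CPM in spheres. H4C14, H2AC13 and H4C3 rose by 2.81, 1.43 and 1.18, from at most 0.999 CPM. These mRNAs end in a stem-loop and are mostly not polyadenylated, and the libraries were made from poly(A) RNA, so their counts need not follow their total level. They are also near-identical copies, among which reads can be shared. Control cells had the same direction, with 11 of 11 higher.

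Epithelial keratin and junction genes were higher in 14 and lower in 6 of 28 cases. Among genes above the count floor in both cultures, the steepest rise of those named was that of CLDN2 (chrX:106900164-106930861, plus strand), which encodes a claudin that forms cation-permeable pores in tight junctions. CLDN2 is not among these 28 genes. It stood at 0.619, 0.614 and 0.723 CPM in adherent cells and 191, 214 and 211 CPM in spheres (8.31, SE 0.1, adjusted p = 8.6e-09). CLDN4, a sealing claudin, went from 28.7, 31.2 and 23.5 CPM to 109, 89.6 and 87.5 CPM, and CLDN3 from 3.52, 3.69 and 1.45 CPM to 29.9, 18.8 and 14.1 CPM. The lowest CLDN3 value was again adherent replicate 3, and its log2 fold change of 2.88 became 1.64 with the GC offset. EPCAM, a surface glycoprotein of epithelia, rose by 1.02. The basal keratin KRT15 rose by 2.11, and KRT16 went from 0.524, 0.461 and 0.0964 CPM to 1.11, 1.01 and 1.27 CPM. Against the list, KRT7 fell from 1870.4, 1992 and 1408 CPM to 708, 731 and 664 CPM and KRT18, a keratin of simple epithelia, from 486, 502 and 516 CPM to 289, 296 and 281 CPM. KRT81, a hair keratin, and PKP1, a desmosomal plakophilin, fell by 1.35 and 1.13.

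CDH1 encodes E-cadherin, the adhesion protein of epithelial junctions. It was at 10.7, 11.4 and 13.9 CPM in adherent shSigma cells and 23.9, 30.1 and 29.3 CPM in spheres, a log2 fold change of 1.23 (SE 0.12, adjusted p = 0.00019). In control cells it was at 26.8, 26.8 and 26.9 CPM and 732, 678 and 769.6 CPM, and the interaction was -3.55 (SE 0.15, adjusted p = 1.7e-09). The rise in shSigma spheres was therefore much the smaller. ZEB1, a repressor of CDH1, was at 28.7, 27.9 and 36.9 CPM in adherent and 27.9, 28.9 and 30.7 CPM in sphere shSigma libraries and did not pass the test (adjusted p = 0.57), while in control cells it fell from 22.8, 21.2 and 21.9 CPM to 1.76, 1.32 and 2.07 CPM. Vimentin (VIM), the mesenchymal intermediate filament, fell by 0.49 in shSigma and by 2.38 in control spheres. Of 10 mesenchymal factors tested in shSigma cells, 3 fell and 1 rose. SNAI2, an inducer of the mesenchymal state, fell by 1.30, and CD44, a hyaluronan receptor, by 1.02. For the epithelial list the interaction was negative in 18 of 31 members.

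Several stem cell factors rose, but their list as a whole was divided, with 9 of 20 higher and 6 lower. SOX2, a transcription factor of pluripotent and basal progenitor cells, was at 0, 0.0512 and 0.0482 CPM in adherent cells, with at most 3 counts per library, and at 4.94, 4.4 and 4.98 CPM in spheres. Set against the floor of 3 counts per library, it was at least 32.5-fold higher. SOX4, which acts in progenitors and in Wnt signalling, was at 30, 28.4 and 29.9 CPM and 119.9, 134 and 129 CPM. ABCG2, the drug efflux pump of side population cells, was at 10.9, 10.6 and 13 CPM and 28.3, 27 and 31.1 CPM. ALDH1A3, a retinaldehyde dehydrogenase used to mark progenitors, rose by 1.01. Against these stood KIT, a receptor of stem cell factor, which fell by 2.12, and CD44, which fell as above.

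In the Wnt pathway, 9 of 29 genes rose and 7 fell. AXIN2, a feedback target of beta-catenin, was at 1.29, 1.43 and 1.35 CPM in adherent cells and 10.8, 9.32 and 9.96 CPM in spheres. RNF43, a feedback ligase that removes Wnt receptors, was at 0.714, 1.28 and 1.16 CPM and 6.9, 6.73 and 8.21 CPM. RSPO3, a secreted ligand that keeps Wnt receptors at the membrane, is outside the list. It was at 1.43, 1.07 and 1.78 CPM and 18.7, 21.1 and 20.2 CPM. All 3 were separated between the cultures. LRP4, a relative of the Wnt co-receptors and also outside the list, rose by 3.55. The ligands WNT10B and WNT11 rose by 1.48 and 1.83, both from low levels. DKK3, a relative of secreted Wnt antagonists, fell by 1.94, but it overlaps an antisense gene. RNF43 overlaps a readthrough transcript over most of its exons, so its reads may be divided. In the Notch pathway, 9 of 18 rose and 3 fell, and the members called numbered 9, or 5 with the GC offset. NOTCH3 was at 38.6, 40.9 and 21 CPM and 94.8, 92.3 and 82.5 CPM. LFNG, which modifies Notch receptors, and NRARP, a feedback target, rose by 2.04 and 1.61, with 1.44 for LFNG under the GC offset. NOTCH3 had a log2 fold change of 1.44, or 0.99 with the offset, which ended its call. HES4 rose by 1.77, a value that turned to -0.055 with the GC offset. DTX4, a ubiquitin ligase of the pathway, fell by 1.97.

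Genes of oxidative defence under NRF2 were higher in 18 and lower in 2 of 26 cases (median 0.72). HMOX1, which degrades heme, was at 40.9, 42.4 and 36.8 CPM in adherent cells and 123, 117 and 117 CPM in spheres. FTH1, the heavy chain of ferritin, was at 682, 667 and 779.9 CPM and 2029, 1925 and 1897 CPM. FTH1 and GPX1 overlap other annotated genes, so that part of their reads may be theirs. The glutathione peroxidase GPX1 rose by 2.55 (1.86 with the GC offset), and GPX2 went from 0.19, 0.154 and 0.338 CPM to 3.78, 2.6 and 4.66 CPM. The aldo-keto reductases AKR1C3 and AKR1C2, which act on steroids and prostaglandins, rose by 2.06 and 3.41, and AKR1C1 by 1.16. These 3 genes are close copies of each other, and reads may be shared among them. AKR1B10 went against the list and fell by 1.17, and TXNRD1, the most abundant of those named, fell by 0.50.

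Lysosome and autophagy genes rose in 19 of 26 cases and fell in 1 (median 0.45). CTSA, a lysosomal carboxypeptidase, was at 181, 191 and 171 CPM in adherent cells and 497, 478 and 497 CPM in spheres, and LAMP1, a membrane protein of lysosomes, at 145, 149.7 and 120.3 CPM and 288, 290.1 and 284 CPM. Neither gene overlapped between cultures. CTSD, an aspartic protease, and SQSTM1, an autophagy receptor, rose by 1.71 and 1.18, with adherent replicate 3 as the lowest library in both. CTSD had 1.10 with the GC offset. Without that library, 3 members were called in place of 6. Over all genes, 666 were then called higher and 536 lower, in place of 785 and 485. Chaperones and other genes of the endoplasmic reticulum rose in 16 of 22 cases and fell in 1, by small steps (median 0.35). HSPA5 (BiP), the main chaperone, went from 1131, 1103 and 1237 CPM to 1387, 1359 and 1354 CPM. EDEM1, which directs misfolded glycoproteins to degradation, went from 125, 124 and 142 CPM to 239.6, 242 and 254 CPM. SDF2L1 rose by 1.17, but by 0.39 with the GC offset, which ended its call. CANX, calnexin, was called at 1.55 but was listed at no more than 4.33 CPM. That is far below what this abundant chaperone has in most cells, so its change is uncertain. The ATF4 targets of amino acid stress were mixed, 7 higher and 8 lower of 25. NUPR1, a stress-induced chromatin protein, and CHAC1, which degrades glutathione, rose by 1.61 and 1.02. CHAC1 had 0.56 with the GC offset and was no longer called.

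The lists of lipid synthesis leaned in opposite directions. Of 25 genes of cholesterol synthesis and LDL uptake, 12 rose and 5 fell. CYP51A1, a sterol demethylase, rose by 1.76 from a low level, but it shares most of its exons with overlapping transcripts and lost the call when any of 3 libraries was left out. In fatty acid synthesis, 5 of 12 fell and the other 7 did not pass the test (median -0.12). With the GC offset, 7 of the 12 fell and 3 rose, where 3880 of all 13622 genes fell and 3768 rose. In control cells 7 of 12 fell and the median was -0.36. SCD, the desaturase that makes monounsaturated fatty acids, fell from 3095, 3064 and 3606 CPM to 911, 1042 and 1015 CPM (-1.69, SE 0.077, adjusted p = 3.9e-06).

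Genes of the ribosome and of mitochondria changed little in size. Of 27 nucleolar genes of ribosome assembly, 13 rose and 1 fell (median 0.28). The 1 called, BOP1, rose by 1.20, from 27.5, 30.8 and 11.3 CPM to 62.4, 48.2 and 47.8 CPM, and was no longer called when any of 5 libraries was left out. With the GC offset it had 0.41, which also ended its call. In control cells 13 of 27 fell. Of 47 cytosolic ribosomal protein genes, 15 fell and 1 rose, with RPL11 at -0.48. Nuclear genes of the respiratory chain were split, 11 higher and 9 lower of 46. NDUFV2, a complex I subunit, was the only one called, at -1.27, from a low 4.14, 5.12 and 5.59 CPM. Transcripts of mitochondrial DNA took 6.76 to 8.04% of counts in adherent and 7.35 to 8.51% in sphere libraries. Of 13, 1 rose and 1 fell. MT-ND2, a complex I subunit, rose by 0.41. Without adherent replicate 3, the counts of members that rose were 20 for the nuclear and 8 for the mitochondrial list. More genes passed in that fit, 3926 higher and 3827 lower of all 13793 tested.

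Interferon-stimulated genes were higher in 14 of 33 cases and lower in 1 (median 0.28). IFI6 went from 14.1, 14.4 and 15.3 CPM to 46.6, 37.2 and 35.2 CPM, and ISG15, a ubiquitin-like modifier, from 6.71, 8.14 and 1.83 CPM to 39, 28.2 and 23.2 CPM. The low ISG15 value belonged to adherent replicate 3, and its log2 fold change of 2.45 became 1.84 with the GC offset. OAS1, a sensor of double-stranded RNA, and IFI44L rose by 1.82 and 2.74, both from under 1 CPM. IFITM2, which blocks viral entry, fell from 33.1, 32.6 and 28 CPM to 7.91, 6.83 and 9.21 CPM. In control cells 25 of 31 rose (median 1.08), where 27.4% of all genes did, and the interaction was negative for 20 of 33 members. Of 8 antigen presentation genes tested, 2 rose and 1 fell, and CD74, the invariant chain, rose by 1.70 from at most 1.28 CPM.

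Of the remaining lists, the steroid and retinoid responsive genes had 7 higher and 6 lower of 16. KLF9, a transcription factor induced by glucocorticoids, fell from 25.3, 25.3 and 27.4 CPM to 7.96, 7.57 and 8.31 CPM, and HSD11B2, which inactivates cortisol, rose by 1.19, but had 0.59 (adjusted p = 0.11) with the GC offset. Among metallothioneins and zinc transporters, 2 of 9 fell and 1 rose. MT1E, a metal-binding protein, was at 304, 337 and 183 CPM and 127, 129.6 and 121 CPM. Of the neuroendocrine markers, SYP (synaptophysin) rose by 1.38 and NCAM1 fell by 1.85, both from at most 3.86 CPM in adherent cells.

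Some of the largest differences were in genes that other tissues are known for. SFTPB (chr2:85657314-85668741, minus strand), which encodes a surfactant protein of lung alveoli, was at 2.38, 2.61 and 1.93 CPM in adherent cells and 584, 493 and 579 CPM in spheres (7.92, SE 0.13, adjusted p = 8e-08). A pair of chains of fibrinogen, a plasma protein made by the liver, rose together, FGA from 0.333, 0.256 and 0.241 CPM to 19.6, 16.3 and 19.9 CPM and FGG from 0.714, 0.461 and 0.482 CPM to 38.3, 26.4 and 37.5 CPM. FGL1, a fibrinogen-like protein of hepatocytes, had at most 3 counts in any adherent library and 8.87, 6.3 and 10 CPM in spheres, at least 57.2-fold higher against that floor. All 4 genes were separated between cultures in control cells too, where spheres held 163, 175 and 148 CPM of FGL1. CLEC19A, a C-type lectin, rose by 6.53, KCNK3, a potassium channel, by 4.83 and DNAJC12, a co-chaperone, by 3.49.

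Genes known from the placenta went the other way. PSG1 was at 17.5, 18.4 and 18.3 CPM in adherent cells and 1.01, 0.636 and 0.953 CPM in spheres. PSG5 was at 12.3, 11.7 and 12.2 CPM in adherent cells and at no more than 3 counts in any sphere library, at least 77.2-fold lower against the floor. These pregnancy-specific glycoproteins are a family of near-identical genes on chromosome 19, so reads may be divided among them. In control cells both were under 1 CPM in either culture. MARCHF4, a membrane-bound ubiquitin ligase, fell from 17.8, 18.6 and 17.8 CPM to 0.453, 0.212 and 0.318 CPM. LINC00707, a long noncoding RNA, fell by 4.28, CCBE1, which acts in lymphatic growth, by 3.16, and NAV3, a cytoskeletal protein, by 2.35. PGM5P2, a pseudogene with close copies, was counted at 88.7, 80.3 and 104 CPM and 12.7, 17.5 and 16 CPM and is uncertain for that reason.

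The culture difference of shSigma cells was set against that of control cells over all genes. In control cells 1496 of 13800 genes were called higher (10.8%) and 684 lower (4.96%) in spheres (together 15.8%, against 9.32% in shSigma cells). Of 13275 genes tested in both, 627 were called in the same direction, which is 55.2% of the shSigma calls among them and 33% of the control calls. Opposite directions were called for 31 genes. The interaction was called for 354 genes (2.5%) in the positive direction and 856 (6.04%) in the negative, together 8.54% of 14175. Interactions are ranked here among genes with at least 10 CPM in a shSigma group and shSigma libraries separated between cultures. Genes that reached that level only in control cells are left out of the ranking. P2RY6, a receptor for extracellular UDP, had the most negative value among the ranked genes (-5.61). It fell in shSigma spheres from 52.4, 58.2 and 42.9 CPM to 22.1, 22.2 and 20.2 CPM and rose in control spheres from 1.96, 2.11 and 2.33 CPM to 43.8, 36.1 and 51.6 CPM. IGFBP3 did likewise (-5.46), although its control sphere libraries spread from 169 to 628 CPM, as did MLPH, a melanosome transport protein (-3.97). At the positive end, FBLN1, a matrix glycoprotein, rose from 54.7, 64.3 and 37.3 CPM to 138, 156 and 148 CPM in shSigma cells and fell from 142, 189.6 and 263 CPM to 57.9, 44.9 and 54.2 CPM in control cells (3.42). TFPI2, a protease inhibitor of the matrix, showed the same pattern (3.02). These differences compare cell populations that differed in the hairpin and in any change acquired since transduction, which cannot be told apart.

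**Figure D1:**
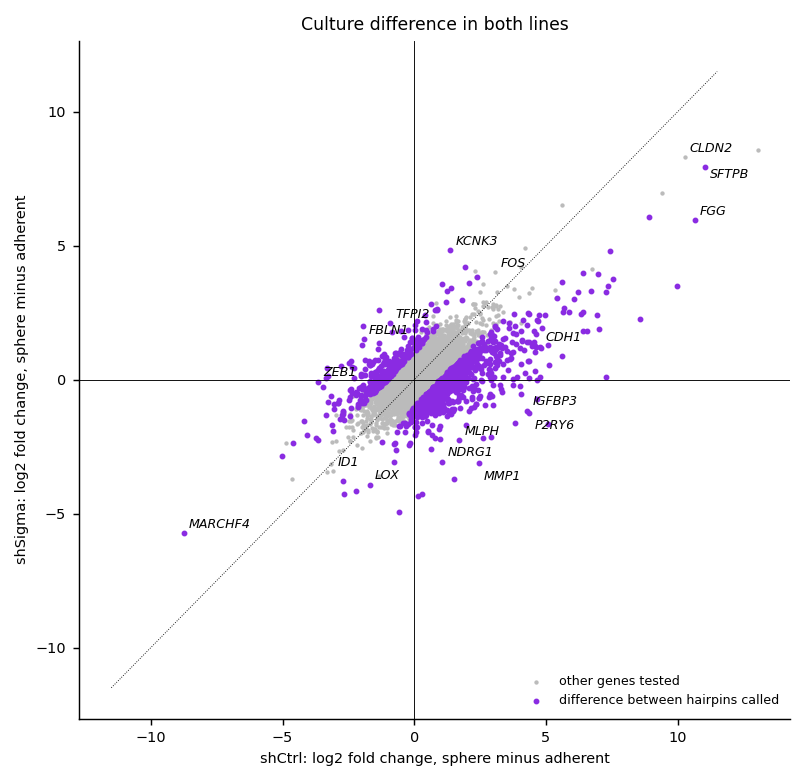
Log2 fold change from adherent cells to spheres in shSigma cells (vertical) against that in shCtrl cells (horizontal) for each gene tested in both, with genes whose interaction was called in purple and equality as a dotted line. P2RY6, IGFBP3, MLPH and NDRG1 lie to the right of 0 and below it, FBLN1 and TFPI2 to the left and above.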

How the data were processed

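RNA was measured by sequencing in all 12 libraries (poly(A) RNA, directional, single reads of 75 bases), from 3 independent replicates per group. The authors deposited whole-number counts per Ensembl gene identifier. Per the labels and the submitters' processing notes, reads were aligned with STAR 2.6.1c to GRCh38.p12 (hg38) and compared with DESeq. Which annotation was counted, whether strand was used and how multimapping reads were handled is not given in the sources used here. Symbols and positions were taken from GENCODE release 44 (GRCh38) for 25452 of 28747 identifiers, and promoter windows from RefSeq (GRCh38.p14).

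Genes were kept by filterByExpr (minimum count 10) and tested with edgeR 4.0.16 in R 4.3.3 (TMM, robust quasi-likelihood fit, two-sided, prior count 0.125), and p-values were adjusted by Benjamini-Hochberg across every gene tested. The 6 shSigma libraries were fitted alone, and a hairpin-by-culture term was fitted to all 12. The code was tested on simulated data. CPM used TMM effective library sizes. The floor of 3 counts per library covers counting error only. Standard errors come from the quasi-likelihood fit and include the spread between libraries. Alternatives were DESeq2 1.42.0, its size factors, upper-quartile scaling, other filters and thresholds, a replicate block and leaving out each library. The offset for transcript GC content and length (splines with 5 and 3 degrees of freedom), alone and with the block, was added after the data were seen.

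The groups were taken from the labels. The comparison, 32 gene lists and 6 marker lists were chosen with earlier results of these data known. Genes were named by this rule: the 15 highest and 15 lowest fold changes among called genes that reached 10 CPM in their higher group with separated libraries; up to 4 called members per list and direction, and members that went against their list; the 5 highest and 5 lowest interactions under the same limits; and genes at the floor in one culture with at least 5 CPM in the other. Familiar members of the lists were added after their values were seen: GAPDH, ENO1, PGK1, PKM, VEGFA, P4HA1, MYC, EGFR, LIF, MKI67, TOP2A, ANLN, BUB1, CDC25C, CDKN1A, CCN1, NT5E, LTBP1, KRT18, VIM, ZEB1, CXCL2, CXCL8, IL6, ICAM1, NFKBIA, FTH1, HMOX1, TXNRD1, AKR1C1, EDEM1, HSPA5, RPL11 and MT-ND2. Members against their list that were not called are mostly given as counts. Some genes under the rule, the one targeted by the hairpin among them, are not reported here. Counts as low as 1 to 2 CPM rest on few reads per library, so that small fold changes of such genes are imprecise.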

Additional observations from a re-analysis of the deposited data

Results flagged for a closer look

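The sphere-to-adherent difference itself differed between shSigma and shCtrl cells in 1210 genes by the interaction test of edgeR, and that is what flagged the genes below. Each value is the log2 fold change in shSigma cells minus that in shCtrl cells. The 2 hairpins share no library, but each interaction rests on 3 libraries per group. Some values rest on control levels near the floor, so their size is imprecise. Control cells held at most 1.46 CPM of MMP1 and 0.662 CPM of KIT, and adherent control cells at most 0.0768 CPM of FGG, for example. The interaction calls of IL6, NOTCH3, NUPR1, ITGB8, COL13A1, PSG5 and GPX2 were each lost under several of the alternatives tried. So were those of BNIP3, KRT18 and CDKN1A, which fell under the threshold on the fold change, at -0.88, -0.91 and -0.91 with the GC and length offset. The calls of ACTA2, CD74, CXCL1, GDF15, KRT7 and SYP were lost under 1 alternative each.

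Lower values in shSigma cells were seen among metabolic and hypoxia genes, with -4.15 for NDRG1, -3.71 for SLC2A3, -3.26 for STC1, -2.25 for LOX, -2.16 for PFKFB4, -1.67 for PPP1R3C, -1.43 for VEGFA, -1.36 for HK2, -1.19 for PDK1 and -1.01 for BNIP3. ANGPTL4 went the other way, at 1.79. Among secreted and tissue-specific genes the values were -3.13 for SFTPB, -2.88 for FGA, -4.71 for FGG, -3.89 for DNAJC12, -3.95 for PSG5, -5.46 for IGFBP3, -5.61 for P2RY6 and -3.97 for MLPH. LINC00707 had -1.63.

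Epithelial genes were mostly negative, at -3.55 for CDH1, -2.78 for CLDN4, -1.50 for KRT15, -1.49 for KRT81, -1.17 for KRT7 and -1.08 for KRT18, whereas ZEB1 had 3.57 and VIM 1.87. Genes of adhesion and matrix were split. CCN2 (2.82), CCN1 (2.53), ANKRD1 (2.00), CAV1 (1.52), FN1 (1.23), FBLN1 (3.42) and TFPI2 (3.02) were positive. MMP1 (-5.59), ITGB8 (-1.24), NID1 (-1.27), COL13A1 (-1.12) and ACTA2 (-1.52) were negative.

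Of the cytokine genes, CXCL2 (2.08), CXCL8 (1.28), CXCL1 (1.12), NFKBIA (1.26) and C3 (1.99) were positive, and IL6 (-1.14) and S100A9 (-3.36) negative. Of the interferon and antigen presentation genes, those called among the named ones were negative, at -4.78 for OAS1, -2.04 for IFITM2 and -2.20 for CD74. In the pathways of TGF-beta and growth factors, GDF15 had -3.42, TGFB3 1.81, SMAD9 -1.22 and TGFA -1.44. In Wnt and Notch signalling, AXIN2 had 1.66, LRP4 2.46, RSPO3 1.42, WNT10B 1.14, DKK3 -1.32, NOTCH3 -1.66 and DTX4 -2.53. The stem cell genes KIT and ABCG2 had -3.55 and -1.33.

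Among stress genes the values were 1.94 for HMOX1, 2.51 for AKR1C1, -3.26 for AKR1B10, -2.43 for GPX2, -1.44 for NUPR1, -1.08 for CDKN1A and 1.61 for CANX. The remaining genes were KCNK3 (3.44), MARCHF4 (2.99), RRAD (2.28), NAV3 (2.23), ANLN (1.08), SYP (1.05) and NDUFV2 (-1.32).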

How the results depend on the processing

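The counts of genes called in shSigma cells stayed within 1.5 times the main counts under the other tools, scalings and filters tried. Thresholds moved them. Without a fold threshold 6414 genes passed (2986 higher, 3428 lower, 457 list members against 142), and with glmTreat, which tests against the fold threshold, 344 did (186 higher, 158 lower, 64 list members). The interaction gave 4024 genes without a fold threshold (1807 higher, 2217 lower) and 390 with glmTreat (83 higher, 307 lower), and its lower count was 522 where at least 10 counts in every library were required. Leaving out 1 library gave 1053 to 1470 genes called in shSigma cells (595 to 961 higher, 458 to 536 lower, 127 to 146 list members), and 1111 to 1306 for the interaction (358 to 465 higher, 732 to 885 lower). HES4 turned to -0.055 with the GC and length offset and to -0.085 with the offset and block, and BBC3 to -0.11 and -0.13. Among named genes called in shSigma cells, the offset also ended the calls of LTBP3, HSD11B2, BCAR1, BOP1, CHAC1, SDF2L1, NOTCH3, CD44 and LDHA. Leaving out some single libraries ended those of ALDH1A3, BBC3, BCAR1, BOP1, CD44, CHAC1, CYP51A1, H2AC13, H4C3, HES4, HSD11B2, IGFBP3, ITGB8, KRT16, LAMP1, LDHA, MT1E, SDF2L1, SNAI2 and SQSTM1. CTSD lost its call without a low-count filter. The cause was not tested, and the parts of GC content and length were not separated.

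The replicate numbers did not clearly pair the libraries, and with 3 libraries per culture this check cannot settle whether they do. The deviations of same-numbered adherent and sphere libraries correlated at 0.43, -0.056 and 0.59, and adherent replicate 3 matched best with sphere replicate 3 but the other numbers did not all match best with their own. With the replicate block, 855 genes were higher and 483 lower, and 339 and 795 for the interaction.

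Low counts limited some single values. Genes near 1 CPM carried few reads, and several abundant genes were counted near 0 in every library.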
